A study of Rattus norvegicus with 31 samples.

Results

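Chrnd and Chrna1, which encode the delta and alpha1 subunits of the muscle acetylcholine receptor, Runx1, a transcription factor of denervated muscle, and Cdkn1a, which encodes the cell cycle inhibitor p21, were followed across 4 groups of rats. The 4 genes were chosen by symbol out of 11289 genes in the deposited count table, with their levels in cold and room temperature rats already known. All 4 passed the filter on low counts and were among the 10082 genes tested. Their cold-related changes are therefore given as a description, with no test, while the comparisons between genotypes were tested.

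The samples were gastrocnemius, a calf muscle, from 31 female Sprague Dawley rats aged 7 months and fed chow. The rats were wild-type controls or knockouts of Ucp1, the uncoupling protein with which brown fat makes heat, and were kept at room temperature or at 4 °C for 14 days. Controls numbered 8 at either temperature and knockouts 7 at room temperature and 8 in the cold, each giving 1 library from whole muscle. The QuantSeq 3′ kit used for the libraries sequences 1 tag close to the end of a polyadenylated transcript. A library is referred to by its group and the number of its animal.

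The receptor for acetylcholine is a pentamer that opens when the motor nerve releases its transmitter at the endplate. Innervated adult fibres transcribe its subunits mainly in the few nuclei under the synapse, because electrical activity represses them elsewhere along the fibre. After denervation or in inactive muscle that repression is lifted, the myogenic factors that bind E-boxes take part in it, and the alpha1, beta and delta genes are expressed along the whole fibre. Runx1 is induced in the same setting and limits wasting of the denervated fibre. Cdkn1a is a p53 target that holds cells in G1, keeps myonuclei out of the cycle, and is induced in several forms of muscle stress.

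Promoter sequence is shown because the motifs named in that background can be read in it. All 4 genes matched the RefSeq promoter table of rat build GRCr8, which holds 250 bases before and 50 after a gene's start. Each stretch of 120 bases is on the gene's own strand, with any E-box (CANNTG, searched on both strands) in capitals. The 10 capitals of Cdkn1a are a match to the p53 decamer, the unit that occurs as a pair in a full p53 site.
Chrnd, chr9:95310196-95310315, plus strand: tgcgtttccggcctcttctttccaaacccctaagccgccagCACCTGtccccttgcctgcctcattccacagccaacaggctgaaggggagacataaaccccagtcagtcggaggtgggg
Chrna1, chr3:78877354-78877473, minus strand: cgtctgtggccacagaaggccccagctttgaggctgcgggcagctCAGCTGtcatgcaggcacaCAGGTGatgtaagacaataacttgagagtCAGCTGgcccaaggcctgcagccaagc
Runx1, chr11:45421456-45421575, minus strand: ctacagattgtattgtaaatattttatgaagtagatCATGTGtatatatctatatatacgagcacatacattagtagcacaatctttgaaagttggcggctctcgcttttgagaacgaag
Cdkn1a, chr20:7150700-7150819, plus strand: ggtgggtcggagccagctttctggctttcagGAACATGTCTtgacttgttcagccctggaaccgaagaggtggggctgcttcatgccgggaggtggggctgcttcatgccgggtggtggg

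The Chrna1 stretch holds 3 E-boxes, at positions -75, -56 and -27 from the start, and 2 of them read CAGCTG. Chrnd holds 1 E-box, CACCTG, at -79. At least 1 E-box is present in 72.1% of the 33465 rat promoter windows of this length, at least 3 in 16.6%, and at least 2 copies of CAGCTG in 1.69%. The window of Chrnb1, the beta subunit gene, also holds 3 E-boxes, and that of Chrne, the adult epsilon subunit gene, holds 1. The windows of Runx1 and Cdkn1a each lie at a start inside the gene's span, and positions are counted from that start. The Runx1 window holds 1 E-box. The RUNX core TGTGGT is present in 17.3% of windows and was not found in those of the 4 genes. The p53 decamer is present in 7.98% of windows, including that of Cdkn1a at -201 and that of Chrna1 at -197. The E-boxes of the Cdkn1a window lie nearer to its start than the stretch shown.

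In GRCr8, Chrnd spans chromosome 9 from 95310316 to 95318734 and Chrna1 chromosome 3 from 78862286 to 78877353. Runx1 spans chromosome 11 from 45325778 to 45560300, and Cdkn1a chromosome 20 from 7150820 to 7161373. No other annotated gene of that build overlaps any of the 4. Chrng, the gene of the fetal gamma subunit, begins 7249 bases beyond the end of Chrnd and was not analysed here. Chrnb1 overlaps Zbtb4, and Chrne overlaps C10h17orf107 and Gp1ba, so without a stated strand setting their counts are less certain.

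Depth ran from 6.56 to 11.9 M counts per library. On the second principal component room temperature controls 1 and 2 lay away from all other libraries; it held 14.1% of the variance. On the first, which held 35.3%, 7 libraries spread over all 4 groups lay lowest. Some results are also given without these libraries. Levels are CPM, counts scaled to the library's total after TMM normalization, and changes are log2 fold changes with their standard error (SE) from edgeR. In whole muscle a lower level from fewer cells of a type cannot be told apart from less RNA per cell. The p-values measure differences against the spread between animals.

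Chrnd had higher medians in the cold groups than at room temperature, and its highest values in cold knockout rats. In room temperature controls its level was 20.7 CPM at the lowest, 33.3 at the median and 49.2 at the highest. Room temperature knockout rats ran from 24.2 through a median of 37.3 to 56.8 CPM. These 2 groups covered nearly the same range, and only 1 of 7 knockout rats lay above every control.

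In the cold, Chrnd ran from 48.9 through a median of 82.4 to 114.6 CPM in controls. Cold knockout rats ran from 42.9 through 103.0 to 231.0 CPM. All but 1 of the 8 cold controls lay above every room temperature control, and 6 of 8 cold knockout rats lay above every room temperature knockout rat. The cold knockout group was the most spread, with animals 28, 25, 30 and 26 at the top and animals 31 and 29, at 42.9 and 49.1 CPM, at the level of the highest room temperature animals.

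The fitted log2 change of Chrnd with cold was 1.19 ± 0.27 (SE) in controls, a fold of 2.28. In knockout rats it was 1.61 ± 0.28, a fold of 3.04. Chrnd was past the adjusted threshold of 0.05 in both. Its selection had used these comparisons, so nothing is read from that. In controls it was no longer past when room temperature control animal 3 or cold control animal 21 was left out. The log2 changes were then 1.11 and 1.085. Within groups Chrnd also followed the number of counts in a library (r = 0.65 over 31 libraries, deviations from group means on log2 scales), and the part of depth in the result was not tested.

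Chrna1 gave few tags, which limits its precision. Room temperature controls ran from 0.417 through a median of 3.86 to 4.83 CPM, from 4 to 39 counts, and knockout rats from 0.211 through 3.23 to 4.80 CPM, from 2 to 50 counts. The lowest values came from control animal 2 and knockout animal 9. Cold controls ran from 4.18 through 6.23 to 9.09 CPM, and cold knockout rats from 1.30 through 6.08 to 12.2 CPM.

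The cold control values of Chrna1 lay above every room temperature control in 7 of 8 animals, and the cold knockout values above every room temperature knockout rat in 6 of 8. The log2 change with cold was 0.94 ± 0.38 in controls, a fold of 1.91, and 1.15 ± 0.40 in knockout rats, a fold of 2.23. Without control animals 1 and 2, which had 2.02 and 0.417 CPM, the change in controls was 0.66 ± 0.36. Cold knockout animal 31, the lowest of its group for Chrnd, was also the lowest for Chrna1.

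Runx1 had its lowest median in room temperature controls and its highest in cold knockout rats. Its level was 8.73 CPM at the lowest, 11.8 at the median and 15.6 at the highest in room temperature controls, and 13.1, 16.8 and 20.7 CPM in room temperature knockout rats. Cold controls ran from 10.6 through 16.1 to 30.8 CPM and so covered the range of the room temperature knockout rats. Cold knockout rats were highest, from 15.9 through 25.96 to 42.0 CPM.

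With cold, the log2 change of Runx1 was 0.58 ± 0.20 in controls, a fold of 1.495, and 0.63 ± 0.21 in knockout rats, a fold of 1.55. Of the cold controls 5 of 8 and 6 of 8 cold knockout rats lay above every room temperature animal of their genotype. Animals 17, at 30.8 CPM, and 25, at 42.0 CPM, were the highest of the cold controls and cold knockout rats. Both were among the 7 libraries lowest on the first component, with which Runx1 had r of -0.62 within groups. Without animal 17 the change in controls was 0.42, and without animal 25 that in knockout rats was 0.52. Without the 7 libraries these changes were 0.45 ± 0.20 and 0.53 ± 0.21.

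Cdkn1a, like Runx1, had its lowest median in room temperature controls and its highest in cold knockout rats. Room temperature controls ran from 11.1 through a median of 23.9 to 36.7 CPM, and room temperature knockout rats from 23.6 through 42.99 to 62.3 CPM. Cold controls ran from 25.3 through 48.0 to 107.5 CPM, where animal 21 alone exceeded 63.9 CPM. Cold knockout rats ran from 30.1 through 95.1 to 156.6 CPM, and 6 of the 8 lay above every room temperature knockout rat while animals 27 and 28 did not.

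The log2 change of Cdkn1a with cold was 1.17 ± 0.33 in controls and 1.19 ± 0.34 in knockout rats, folds of 2.25 and 2.28. Cdkn1a did not pass the threshold of edgeR in either and passed that of DESeq2 in both. Of the 4 genes, 1 was past the edgeR threshold in controls, where 0.595% of tested genes were called higher and 0.258% lower. In knockout rats it was again 1 of 4, where 1.02% were called higher and 0.357% lower. Since the genes were selected on these comparisons, nothing is read from those calls and counts. The median log2 change of the 4 genes was 1.05 in controls and 1.17 in knockout rats, and that of all tested genes was -0.03 and 0.02.

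**Figure D1:**
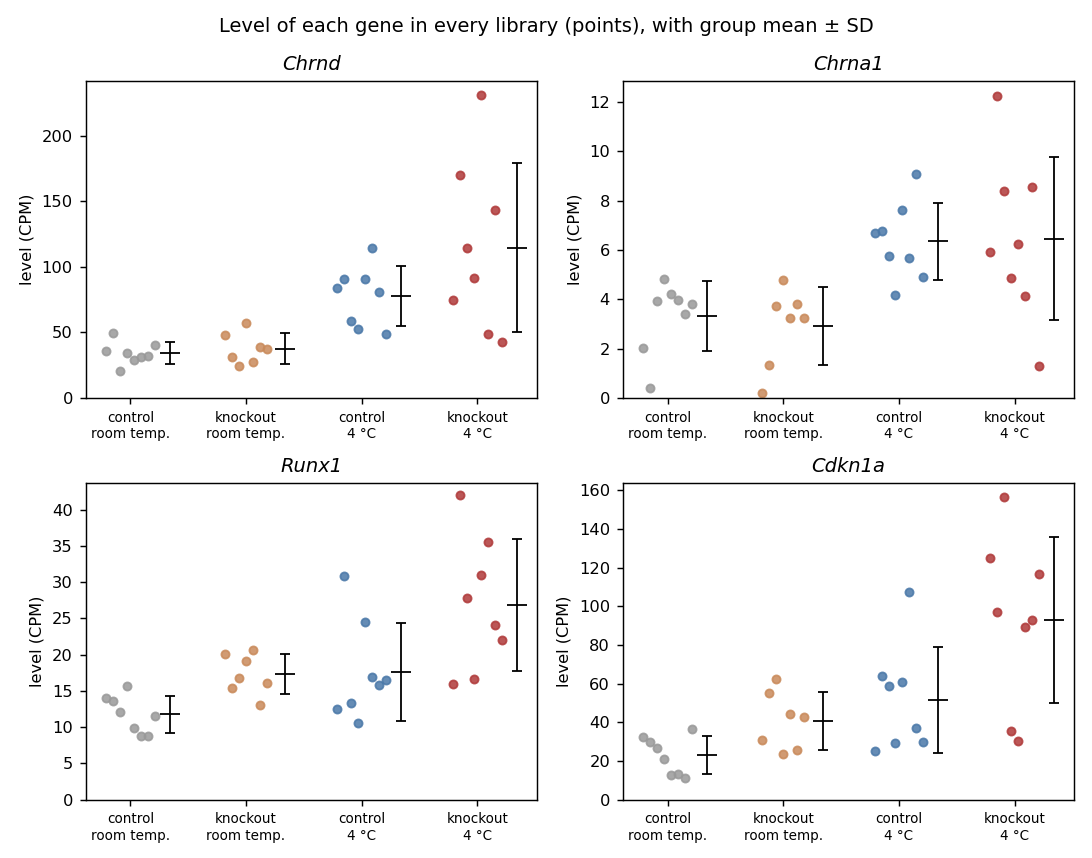
Level in CPM (vertical axis, linear, from 0) of each gene in every library, by group on the horizontal axis; points are animals, and the bar beside them is the group mean ± SD. Within each genotype the cold group has the higher mean for all 4 genes, and cold knockout rats reach 231.0 CPM for Chrnd and 156.6 CPM for Cdkn1a.

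The means over each group give the order of the levels. For Chrnd they were 34.1 ± 8.35, 37.7 ± 11.6, 77.6 ± 22.7 and 114.7 ± 64.4 CPM (SD) in room temperature controls, room temperature knockout rats, cold controls and cold knockout rats. The genotypes lay within 1 SD of each other at room temperature, and in the cold within the SD of the knockout rats but not that of the controls. For Chrna1, in the same order, means were 3.32 ± 1.43, 2.90 ± 1.58, 6.34 ± 1.56 and 6.46 ± 3.31 CPM, so genotypes again lay within 1 SD. Runx1 means were 11.8 ± 2.55, 17.3 ± 2.76, 17.6 ± 6.78 and 26.9 ± 9.11 CPM, and the 2 middle groups were not separated. Cdkn1a means were 22.965 ± 9.89, 40.7 ± 14.8, 51.6 ± 27.5 and 92.9 ± 42.99 CPM.

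The genotype comparisons ask whether rats without Ucp1 had other levels of these genes. At room temperature none of the 4 passed the edgeR test after adjustment over all genes, and 0% of tested genes did. The log2 change of Runx1 in knockout rats was 0.56 ± 0.21 (edgeR adjusted p = 0.698), and 5 of 7 knockout rats lay above every control. For Cdkn1a it was 0.83 ± 0.34 (edgeR adjusted p = 0.698), with 4 of 7 above every control. Before adjustment the edgeR p was 0.0127 for Runx1 and 0.0197 for Cdkn1a, the 2 of the 4 genes under 0.05 among 712 such genes of 10082. DESeq2 called 0 of the 4.

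The receptor genes at room temperature had log2 differences of 0.14 ± 0.27 for Chrnd (edgeR adjusted p = 0.958) and -0.19 ± 0.41 for Chrna1 (edgeR adjusted p = 0.962). Without control animals 1 and 2 the latter was -0.47 ± 0.38, and without knockout animal 9 it was 0.0179. Without the 7 libraries lowest on the first component the Chrnd difference was -0.09 ± 0.25.

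In the cold, the log2 difference of knockout from control was 0.61 ± 0.20 for Runx1 (edgeR adjusted p = 0.576) and 0.85 ± 0.32 for Cdkn1a (edgeR adjusted p = 0.726). For Chrnd it was 0.56 ± 0.26 (edgeR adjusted p = 0.789) and for Chrna1 0.03 ± 0.37 (edgeR adjusted p = 0.999). For Chrnd, Runx1 and Cdkn1a 3 of the 8 cold knockout rats lay above every cold control, and for Chrna1 1 of 8. None of the 4 passed edgeR or DESeq2, 3 had an unadjusted edgeR p under 0.05 beside 633 of all genes, and 0.00992% of tested genes passed edgeR. Without cold knockout animal 28 the Chrnd difference was 0.34. Without the 7 libraries lowest on the first component, which include animals 25 and 28, it was 0.10 ± 0.25.

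The difference between the cold effects of the genotypes was also tested. It was 0.42 ± 0.38 for Chrnd (edgeR adjusted p = 0.881), 0.22 ± 0.55 for Chrna1 (0.965), 0.05 ± 0.29 for Runx1 (0.983) and 0.02 ± 0.47 for Cdkn1a (0.993). None of the 4 genes passed, none had an unadjusted edgeR p under 0.05, DESeq2 called 0 of them, and 0% of all tested genes passed edgeR, with 737 under 0.05 before adjustment. The larger cold change of Chrnd in the knockout rats was thus not separated from that in the controls, and the width of its SE leaves differences of that size undecided. It was 0.19 without the 7 libraries lowest on the first component and 0.20 without cold knockout animal 28.

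Averaged over both temperatures, a comparison added after the values were seen, the log2 difference of knockout from control was 0.58 ± 0.15 for Runx1 (edgeR unadjusted p = 3.48e-04, adjusted p = 0.319) and 0.84 ± 0.23 for Cdkn1a (unadjusted p = 0.00110, adjusted p = 0.400). The receptor genes had 0.35 ± 0.19 for Chrnd (edgeR adjusted p = 0.816) and -0.08 ± 0.27 for Chrna1 (edgeR adjusted p = 0.998). Without the 7 libraries lowest on the first component, Chrnd had 0.00853. Again 0 of the 4 and 0% of tested genes passed edgeR, 2 of the 4 had an unadjusted p under 0.05 beside 645 of all genes, and DESeq2 called 0 of the 4. With scores on the first component added as a covariate, Runx1 passed at 0.63 ± 0.12 (edgeR adjusted p = 0.0244), and over the alternatives that leave out no single animal its adjusted p ran from 0.0244 to 0.374.

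**Figure D2:**
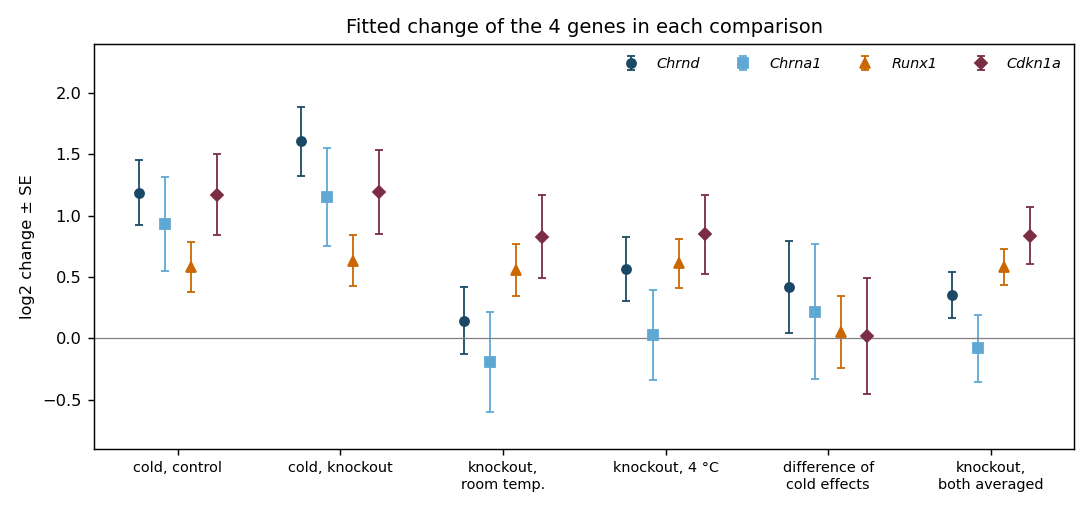
Fitted log2 change (vertical axis; bars are SE) of the 4 genes in each comparison on the horizontal axis. Cold changes lie between 0.58 and 1.61; in the genotype comparisons Runx1 lies between 0.56 and 0.61 and Cdkn1a between 0.83 and 0.85, while Chrna1 lies between -0.19 and 0.03.

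The 4 genes did not follow one another closely from animal to animal. Correlations of log2 CPM are given here as a description, since libraries share depth and group. Over the 31 libraries, r was 0.68 for Runx1 with Cdkn1a, 0.62 for Chrnd with Runx1 and 0.50 for Chrnd with Chrna1. After group means were removed, the same pairs had r of 0.33, 0.34 and 0.18. The lowest r was that of Chrna1 with Cdkn1a over all libraries, at 0.22, and that of Chrnd with Cdkn1a within groups, at -0.13.

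The receptor genes Chrnd and Chrna1 moved together among cold knockout rats (r = 0.77, 8 animals) and cold controls (r = 0.60, 8 animals), and in opposite directions among room temperature controls (r = -0.66, 8 animals), where control animal 2 had the highest Chrnd and the lowest Chrna1. Chrnd and Cdkn1a had r of -0.87 among the 7 room temperature knockout rats. There animal 12 had the highest Chrnd and the lowest Cdkn1a, and animal 11 the reverse. Among cold knockout rats r was -0.42, and animal 28 had 231.0 CPM of Chrnd, the highest, and 30.1 CPM of Cdkn1a, the lowest. Among controls the same pair had r of 0.35 at room temperature and 0.63 in the cold.

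The ratio of Chrnd to Chrna1 tags had a median of 8.61 in room temperature controls, 11.6 in room temperature knockout rats, 12.2 in cold controls and 15.3 in cold knockout rats. Its highest values, 118 in control animal 2 and 228 in knockout animal 9, rest on 4 and 2 tags of Chrna1. Tags near the 3′ end are not scaled by transcript length and depend on where that end is annotated, so the ratio is one of tags, not of subunits.

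**Figure D3:**
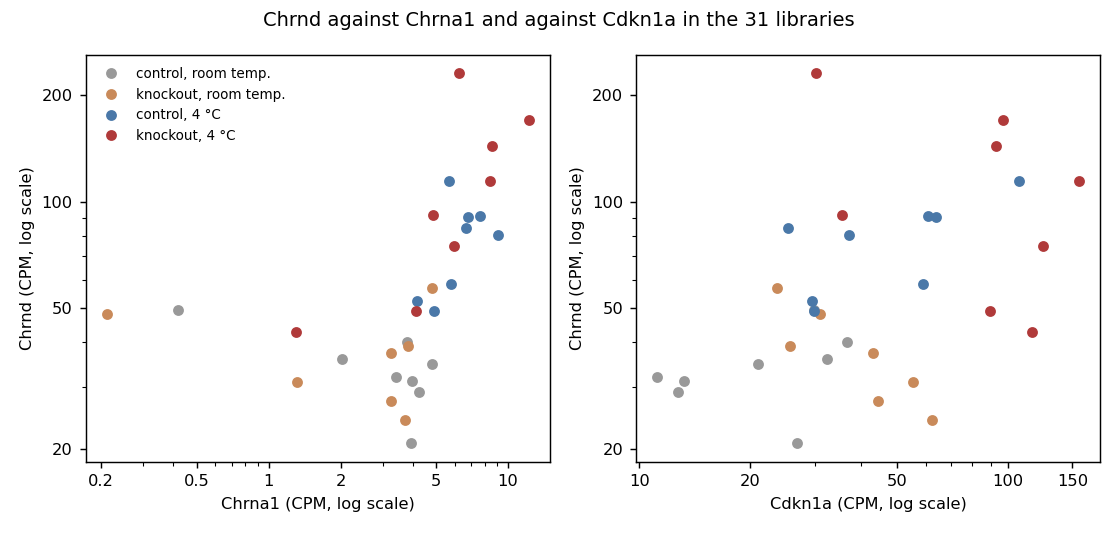
CPM of Chrnd (vertical, log axis) against Chrna1 (left) and Cdkn1a (right), both on log axes, with 1 point per library coloured by group. The cold knockout points rise from 1.30 to 12.2 CPM of Chrna1 with Chrnd, and the cold knockout animal highest for Chrnd is the lowest of its group for Cdkn1a.

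The 2 other receptor subunits in the table had smaller fitted changes with cold. Chrnb1, the beta subunit, had means of 44.7 ± 7.21, 44.5 ± 6.77, 49.9 ± 10.3 and 51.6 ± 9.81 CPM (SD) in the order of groups used above. Its log2 change was 0.16 ± 0.14 in controls (edgeR adjusted p = 0.604) and 0.21 ± 0.14 in knockout rats (edgeR adjusted p = 0.534). Chrne, the subunit that replaces gamma in the adult, had 0.14 ± 0.17 (edgeR adjusted p = 0.718) and 0.45 ± 0.18 (edgeR adjusted p = 0.223). Of these 2 subunits 0 passed edgeR in either genotype. Chrnd and Chrna1 were selected with these comparisons known and are not counted with them.

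Genes that build the endplate did not pass with cold. Of 16 listed, 12 were tested and 0 passed edgeR in either genotype, with 5 in controls and 2 in knockout rats under an unadjusted p of 0.05 and 0 by DESeq2 in both. Over all tested genes 14.2% in controls and 14.3% in knockout rats were under that p, which is the background for this and the other lists. Their median log2 change was -0.13 in controls and 0.01 in knockout rats. Ache, the acetylcholinesterase of the synaptic cleft, had log2 differences of -0.88 ± 0.27 (edgeR adjusted p = 0.113) and -0.87 ± 0.28 (edgeR adjusted p = 0.107). Its levels were 10.2 ± 3.01, 8.30 ± 2.25, 5.55 ± 1.501 and 4.55 ± 2.62 CPM (SD) in the order of groups. The gene of Ufsp1 lies within the span of Ache in GRCr8, so without a stated strand setting their reads may be mixed. Ufsp1 had -0.84 ± 0.28 in controls (edgeR adjusted p = 0.146) and -0.59 ± 0.29 in knockout rats (edgeR adjusted p = 0.349). Utrn, utrophin of the postsynaptic cytoskeleton, had -0.48 ± 0.16 in knockout rats (edgeR adjusted p = 0.124). Etv5, an ETS factor of synaptic nuclei, had 0.41 ± 0.17 in controls (edgeR adjusted p = 0.250) and -0.07 ± 0.17 in knockout rats (edgeR adjusted p = 0.918). Musk, Colq, Erbb2 and Nrg1 were not tested.

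Among 16 tested of 21 listed denervation and activity-regulated genes, 1 rose in controls and 0 passed in knockout rats by edgeR, where 4 were under an unadjusted p of 0.05 and DESeq2 called 2. The median was -0.15 in controls and 0.00388 in knockout rats. This list, like all others here, was chosen with earlier results of these data known, so its calls are a description. Myh3 encodes the myosin heavy chain of embryonic fibres and rose by 2.23 ± 0.42 in controls (edgeR adjusted p = 0.00986), with 1.52 ± 0.42 in knockout rats (edgeR adjusted p = 0.0584). Its highest value, 89.4 CPM, was that of cold control animal 21, also the highest of its group for Chrnd and Cdkn1a. Sln, sarcolipin, which uncouples the calcium pump, had 1.80 ± 0.56 (edgeR adjusted p = 0.114) and 2.11 ± 0.58 (edgeR adjusted p = 0.0570), and animal 21 was again the highest cold control.

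The other genes known from denervated muscle lay on both sides of 0 and did not pass. Trim63, the ubiquitin ligase MuRF1 of wasting muscle, had -0.99 ± 0.32 in controls (edgeR adjusted p = 0.140) and 0.42 ± 0.33 in knockout rats (edgeR adjusted p = 0.630). Gadd45a, a stress gene, had 0.07 ± 0.31 in controls (edgeR adjusted p = 0.936) and 0.76 ± 0.32 in knockout rats (edgeR adjusted p = 0.256). Ampd3, an AMP deaminase, had 0.61 ± 0.35 (edgeR adjusted p = 0.423) and 0.77 ± 0.35 (edgeR adjusted p = 0.301) in the same order. Myogenin, encoded by Myog and an E-box factor, had means of 86.0 ± 40.6, 91.4 ± 42.4, 66.0 ± 22.99 and 73.8 ± 46.3 CPM (SD) and did not pass.

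**Figure D4:**
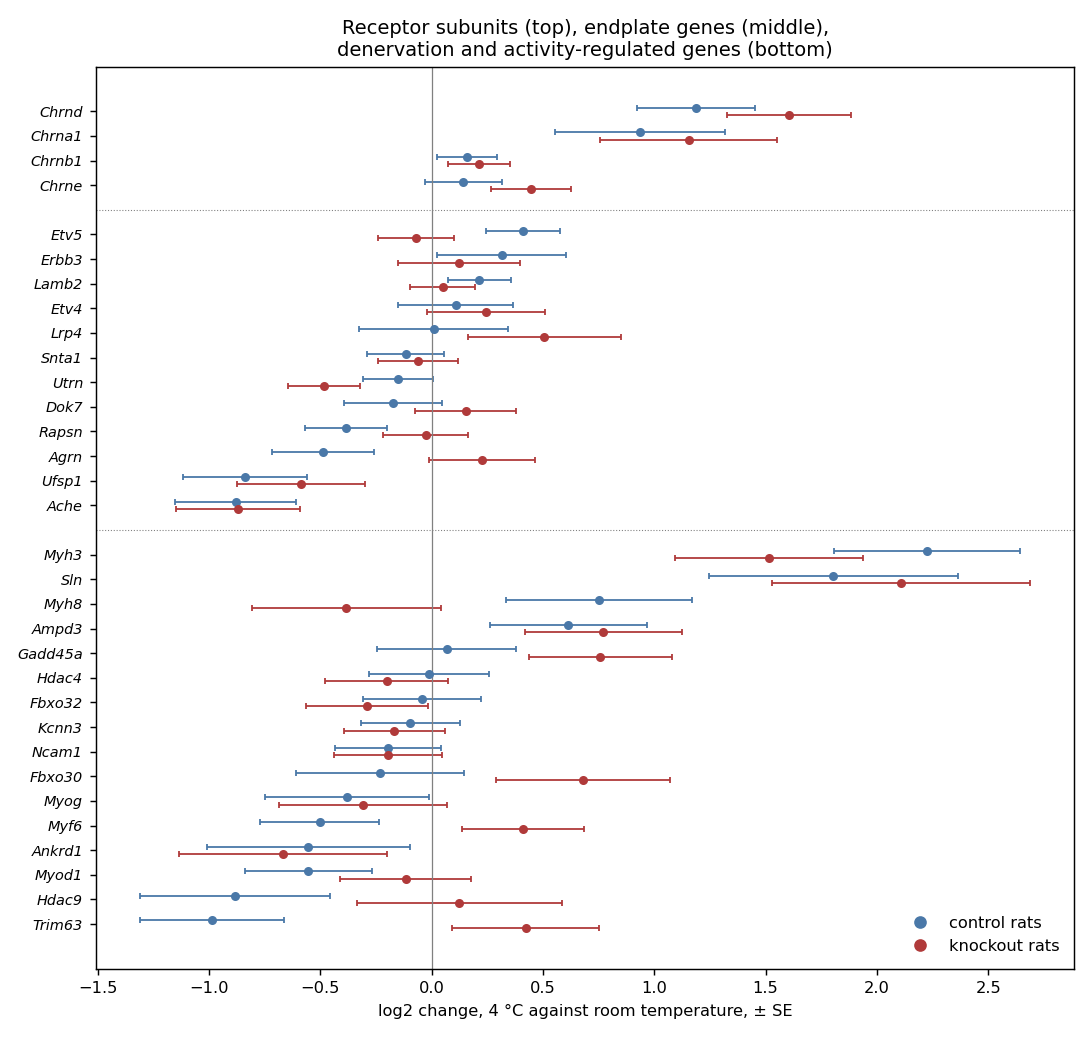
Log2 change from room temperature to 4 °C (horizontal axis; bars are SE) in control and knockout rats for receptor subunits (top), endplate genes (middle) and denervation or activity-regulated genes (bottom). Chrnd, Chrna1, Myh3 and Sln lie highest, and Ache lies at -0.88 and -0.87.

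Of the Runx family and its partners, 4 besides Runx1 were tested, and 0 passed edgeR in either genotype, with 2 in controls and 1 in knockout rats under an unadjusted p of 0.05, and 0 and 1 called by DESeq2. The exception in DESeq2 was Runx1t1, a corepressor of the family, in knockout rats, with -0.49 ± 0.15 (edgeR adjusted p = 0.0812). Cbfb, the partner subunit through which Runx proteins bind DNA, had -0.13 ± 0.30 in controls and 0.10 ± 0.32 in knockout rats.

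Cell cycle inhibitors and G1 cyclins other than Cdkn1a gave no called gene. Besides Cdkn1a, 10 of the list were tested and 0 passed edgeR, with 1 in controls and 5 in knockout rats under an unadjusted p of 0.05. DESeq2 called none of these 10 in either genotype. Cdk6, a G1 kinase, had 0.70 ± 0.27 in controls (edgeR adjusted p = 0.215) and 0.83 ± 0.28 in knockout rats (edgeR adjusted p = 0.118). Cdkn1b, which encodes the related inhibitor p27, had -0.37 ± 0.26 (edgeR adjusted p = 0.508) and -0.66 ± 0.26 (edgeR adjusted p = 0.209), opposite in sign to Cdkn1a.

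Of the p53 targets, 11 besides Cdkn1a were tested, and 7 of the 11 lay above 0 in each genotype. Of all tested genes 46.1% in controls and 53.4% in knockout rats lay above 0. By edgeR 0 passed, with 5 under an unadjusted p of 0.05 in each genotype. Of the 11, DESeq2 called none in controls and only Mdm2 in knockout rats. Mdm2, the inhibitor of p53 that p53 itself induces, had 0.40 ± 0.12 in knockout rats (edgeR adjusted p = 0.0778). Phlda3, an inhibitor of Akt, had 0.56 ± 0.21 in controls (edgeR adjusted p = 0.218) and 0.67 ± 0.22 in knockout rats (edgeR adjusted p = 0.118). Btg2, an antiproliferative gene, had -0.49 ± 0.19 in controls (edgeR adjusted p = 0.244) and -0.29 ± 0.20 in knockout rats (edgeR adjusted p = 0.558). Ccng1, cyclin G1, had -0.66 ± 0.28 (edgeR adjusted p = 0.267) and 0.38 ± 0.29 (edgeR adjusted p = 0.607).

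The genes most like each member were ranked by r of log2 CPM over the 31 libraries among 6693 named genes with a mean of at least 5 CPM. For Chrnd they were Fzd9, a Wnt receptor (r = 0.86, and 0.72 after group means were removed), Rabepk (0.82 and 0.69), the globin gene LOC689064 (0.81 and 0.60), Pcbp4 and Mrpl14. For Chrna1 they were Blvra, biliverdin reductase (0.85 and 0.84), Myl9, a smooth muscle myosin light chain (0.75 and 0.68), Serpinf1, Serping1 and Tmem100. For Runx1 they were Phlda3 (0.81 and 0.66), Gpd1l (0.81 and 0.75), C1qtnf1, Ubxn6 and Sin3b, and for Cdkn1a Ttc27 (0.76 and 0.68), Rnd1, Gpnmb, Ctxn3 and Klhdc1. No gene was among the 5 of more than 1 member. Fzd9 itself rose with cold by 1.06 ± 0.23 in controls (edgeR adjusted p = 0.0167) and 0.91 ± 0.23 in knockout rats (edgeR adjusted p = 0.0411).

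The libraries were muscle by their markers, as 11 tested fibre markers summed to between 103980 and 191440 CPM. Of these Myh7 and Tnnt1, both of slow fibres, rose with cold in controls by edgeR, and Myh7 in knockout rats. Markers of other cells moved with some of the groups. The 15 tested leukocyte markers summed to 117.8 to 434.4 CPM in room temperature controls and 284.6 to 562.5 CPM in room temperature knockout rats. In the cold they summed to 372.3 to 611.1 CPM in controls and 411.2 to 641.9 CPM in knockout rats. The group mean of this sum was lowest in room temperature controls and highest in cold knockout rats, as for Chrnd, Runx1 and Cdkn1a. Means of the summed white adipocyte and erythrocyte markers were lowest and highest in the same 2 groups. For leukocyte markers, room temperature controls 1 and 2 gave the lowest sums, 159.2 and 117.8 CPM. Without them the room temperature controls ran from 292.4 to 434.4 CPM. By edgeR 2 of the 15 rose with cold in controls, Cd163 and S100a8, and 1 in knockout rats, Cd163. All 15 lay above 0 in room temperature knockout rats against controls, where 45.4% of all tested genes did, and 0 passed there. Without controls 1 and 2 the mean sum of these controls was 364.7 CPM, against 390.2 CPM in the knockout rats. The count above 0 was not taken without them. Ptprc, which defines leukocytes, had between 12 and 78 counts and was at 0 in no library. Over the 31 libraries r with the summed leukocyte markers was 0.51 for Chrnd, 0.46 for Chrna1, 0.46 for Runx1 and 0.32 for Cdkn1a. Removal of group means left 0.10, 0.31, 0.03 and -0.27 in the same order. Those values within groups do not bear on differences between groups.

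Summed white adipocyte markers ran from 134.2 to 684.6, 361.3 to 564.6, 405.2 to 714.1 and 448.8 to 1212 CPM in the order of groups. Without controls 1 and 2, at 146.0 and 134.2 CPM, the room temperature controls ran from 353.3 to 684.6 CPM, with a mean of 547.1 against 477.9 CPM in room temperature knockout rats and 513.0 CPM in cold controls. Of these markers 1 of 8, Retn, rose with cold in knockout rats by edgeR. Schwann cell and nerve markers, 7 tested of 13, summed to 97.5 to 368.8, 140.8 to 334.5, 120.9 to 333.3 and 155.3 to 299.1 CPM, and 0 passed edgeR with cold, with 2 and 0 under an unadjusted p of 0.05 and 0 by DESeq2. Over the 31 libraries, Chrna1 had r of 0.40 with the Schwann cell and nerve sum and 0.52 with the adipocyte sum, and Chrnd -0.18 and 0.45. Within groups, Chrna1 had 0.53 and 0.47, and Chrnd -0.23 and 0.10. Satellite cell markers, 5 tested of 7, summed to 73.8 to 97.5, 68.2 to 86.6, 60.1 to 86.9 and 68.9 to 90.8 CPM, and 0 passed, with 1 in each genotype under an unadjusted p of 0.05 and 1 and 0 by DESeq2. Pax7, which defines satellite cells, had at most 13 counts and was at 0 in 3 libraries, and Sox10, which defines Schwann cells, had at most 14 and was at 0 in 1. Of 7 endothelial, 7 fibroblast and 3 erythrocyte markers tested, Cdh5, an endothelial cadherin, fell with cold in controls, Alas2, of haem synthesis in erythroid cells, rose in knockout rats, and the others did not pass edgeR. Among cold knockout rats, animals 28, 25 and 30, the highest for Chrnd, had the highest erythrocyte sums, 1389, 1048 and 928 CPM. Room temperature knockout animals 12 and 9, highest there for Chrnd, also had the highest sums, 740 and 676 CPM. Cold control animal 21, highest of its group for Chrnd, had the lowest, 313 CPM. The endothelial sum was likewise highest or lowest in these animals. No correlation with either sum was taken. The part of all these cell types in the levels of the 4 genes was not tested.

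**Figure D5:**
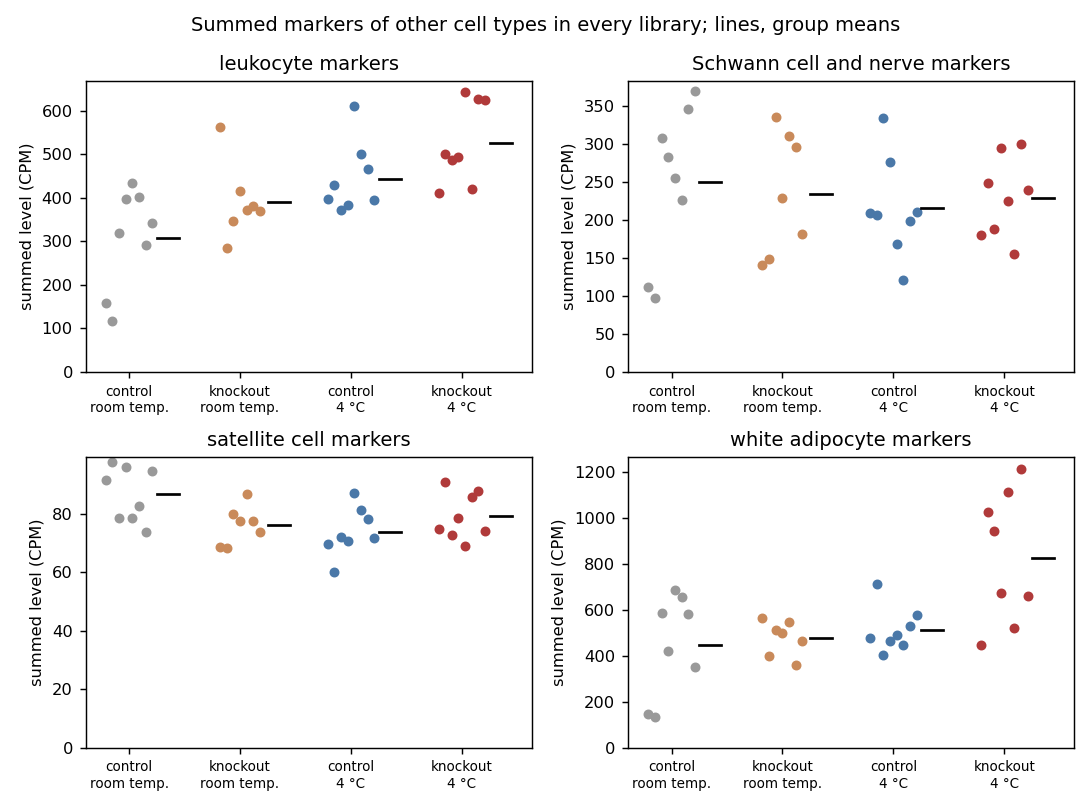
Summed level in CPM (vertical axis, linear, from 0) of the tested markers of 4 other cell types in every library, by group; points are animals and lines are group means. Leukocyte sums reach 641.9 CPM in cold knockout rats and satellite cell sums lie between 60.1 and 97.5 CPM in all groups.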

How the data were processed

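Gastrocnemius RNA of 31 rats was read with a 3′ tag kit. The deposited raw table holds counts of reads per gene made by the authors. A second deposited table holds normalized signal, each value being a raw count over that library's size factor (largest relative difference 5.23e-10), and served only for gene symbols. Per the submitters' processing notes DESeq2 1.22.2 and build Rnor 6.0 were used; not given in the sources used here are the aligner, the counter and the strandedness used. The lowest gene total was 93 counts, so low genes had been left out before deposition. Positions and promoter sequence are from RefSeq for GRCr8. Counts may hold PCR copies.

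Groups came from the titles, and each animal number occurs once, so nothing pairs animals. In all 105 pairs of same-group libraries the counts differed beyond sampling noise (chi-square over its degrees of freedom at least 4.995). In R 4.3.3, edgeR 4.0.16 with limma 3.58.1 fitted group means to all 31 libraries by quasi-likelihood (TMM; filterByExpr, minimum count 10 and total 15; 27 residual degrees of freedom), with two-sided p-values adjusted by Benjamini-Hochberg over 10082 genes and a threshold of 0.05. SE is the log2 change over the square root of F, and log2 CPM uses a prior count of 2. The script was tested on simulated data.

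The 4 genes and all gene lists were chosen with earlier results of these data known. Named genes are the 4, the called genes of each list, up to 4 others by p, and the 5 most correlated with each member; Myog and Cbfb are named for their role. Alternatives were DESeq2 1.42.0, no low-count filter, upper-quartile scaling, a principal component covariate, a fit to only the groups compared, and leaving out single or sets of animals. The knockout averaged over temperatures, the omission of the 7 libraries lowest on the first component, list counts without the 4 genes and marker sums without 2 controls were added after the data were seen.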

Additional observations from a re-analysis of the deposited data

Results flagged for a closer look

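Cdkn1a in cold control animal 21 was 107.5 CPM, far from the others of its group, of which the next highest, animal 17, had 63.9 CPM. The mark was 1 from 16 combinations of gene and group in which a single distant animal was looked for, and the nominal rate of chance marks is about 1 in 20.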

How the results depend on the processing

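The cold changes of the 4 genes kept their direction under every alternative and single omission run, but their sizes moved. Without the 7 libraries lowest on the first component, cold changes in knockout rats were 0.86 for Chrna1 and 1.44 for Chrnd. The knockout difference of Cdkn1a at room temperature was 1.10 without those 7 and 1.02 without control animals 1 and 2. Without these 2 controls the difference between cold effects of Chrna1 was 0.50. The number of genes called with cold was 86 in controls and 139 in knockout rats, and it became 220 and 328 with DESeq2, 38 and 379 without control animals 1 and 2, and 379 and 674 with first component scores as a covariate. In controls the higher genes were 60 of 86, 128 of 220 with DESeq2 and 160 of 379 with the covariate. It was 53 in controls without the 7 libraries lowest on that component, and 53 in knockout rats with only the groups compared. For the knockout at room temperature it was 0 and 1 with DESeq2. For the knockout in the cold it was 1, with 8 by DESeq2, 4 without control animals 1 and 2, 8 with the covariate, 0 with only the groups compared and 0 without the 7 libraries. For the difference between the cold effects it was 0 and 1 with DESeq2, and for the averaged knockout 0, with 9 by DESeq2, 1 without control animals 1 and 2 and 8 with the covariate. Leaving out 1 animal gave 36 (cold control 21) to 154 (room temperature control 4) and 56 (room temperature knockout 14) to 231 (room temperature control 2) calls with cold, 0 to 1 and 0 to 3 for the knockout at room temperature and in the cold, 0 to 1 for the difference and 0 to 2 for the averaged knockout.

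Signs turned only in the tested comparisons. The difference between cold effects of Cdkn1a was -0.0253 with upper-quartile scaling, -0.16 without control animals 1 and 2, -0.0356 with the covariate and -0.15 without the 7 libraries, and that of Runx1 was -0.0291 without control animals 1 and 2. Without the 7 libraries the knockout difference of Chrnd at room temperature was -0.0872, that of Chrna1 in the cold -0.23, and the difference between cold effects of Chrna1 -0.0387. With the covariate Runx1 passed in the averaged knockout, at 0.63. Single omissions moved Chrna1 from -0.363 to 0.0179 for the knockout at room temperature, from -0.16 to 0.17 in the cold and from -0.176 to 0.026 averaged, and the difference between cold effects from -0.0573 to 0.223 for Runx1 and from -0.16 to 0.26 for Cdkn1a. The cause was not tested. Low tag counts limit Chrna1. No paired analysis was possible because no animal number is shared between groups.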
